A study of Mus musculus with 39 samples.

Results

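The genes described are 8 regulators of spermatogonial differentiation and of the entry of male germ cells into meiosis, namely Kit, Sohlh1, Sohlh2, Dmrtb1, Stra8, Rhox13, Rec8 and Ythdc2. They were chosen by name, and all 8 were found among the 21561 Ensembl genes that the 2 deposited count tables share. RNA-seq of whole testis was performed on WT, INSL3-KI and INSL3-KO mice to compare a cetacean INSL3 with the mouse hormone and with its loss, in 8 groups of 3 biological replicates, 24 libraries in all. WT testes were taken at P8, P23 and P40, INSL3-KI testes at the same ages, and INSL3-KO testes at P8 and P23. INSL3 is a peptide hormone of Leydig cells that drives descent of the testis. All lines were kept on C57BL/6J. INSL3-KI mice were homozygous for an allele in which the minke whale (Balaenoptera acutorostrata) INSL3 cDNA takes the place of the mouse coding sequence at the Insl3 locus. This line came from targeted embryonic stem cells through chimeras, and its neomycin cassette was removed by mating to Cre mice. INSL3-KO mice are knockouts of the gene, and the study does not describe how their allele was made. In sexually mature mice the study found WT testes in the scrotum, INSL3-KI testes in the inguinal region and INSL3-KO testes near the kidney. In mature mice the position of the testis thus differs with the genotype, and there the hormone and the position cannot be told apart. The study describes the first, transabdominal phase of descent as normal in INSL3-KI and the second, inguinoscrotal phase as abnormal. A difference in position between INSL3-KI and WT at P8 was not reported.

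Spermatogonia leave the undifferentiated pool when Sertoli cells supply retinoic acid, and they then switch on Kit, the receptor tyrosine kinase for Kit ligand. Sohlh1 and Sohlh2 are germ-cell basic helix-loop-helix factors of this step, and Dmrtb1 is a DM-domain factor that sets the change from mitosis to meiosis. Stra8 and the X-linked homeobox gene Rhox13 respond to retinoic acid, Stra8 being required for meiotic entry, Rec8 encodes a meiosis-specific cohesin subunit, and Ythdc2 is an RNA helicase that acts with Meioc to carry germ cells into meiotic prophase. In the first wave of mouse spermatogenesis, spermatogonia are the germ cells present in the first postnatal week and spermatocytes and spermatids are added later, so that each gene's share of whole-testis RNA depends on which cells are present. Fewer cells of a type and less RNA per cell cannot be told apart in these bulk samples.

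On GRCm38, Kit lies at chr5:75574916-75656722 and Stra8 at chr6:34920163-34939344, both on the plus strand. Sohlh1 lies at chr2:25842995-25847248 on the minus strand and Sohlh2 at chr3:55182028-55209957 on the plus strand. Dmrtb1 lies at chr4:107676290-107684230 on the minus strand, Rec8 at chr14:55618037-55625395 and Rhox13 at chrX:38121219-38129967 on the plus strand. All are annotated as protein-coding, and none of their exons overlaps an exon of another gene. RefSeq start sites of the GRCm38.p6 build were used for 7 of the 8, and the position and start site of Ythdc2 are not reported here. The 250 bases upstream of each were searched on both strands for AGGTCA, the core half-site bound by retinoic acid receptors. They were also searched for CANNTG, the E-box of basic helix-loop-helix factors, and for its palindromic form CACGTG. Among the 7 genes, AGGTCA was found upstream of Stra8 and Sohlh1. The sequences around the 2 copies of Stra8 are shown because this gene is the textbook target of retinoic acid in these cells. They lie at chr6:34920742-34920771 and chr6:34920898-34920927 on the plus strand, the motif starting 194 and 38 bases before the start site, with AGGTCA in capitals.
Stra8 distal: gatggggtgaaaAGGTCAtcttgctccttc
Stra8 proximal: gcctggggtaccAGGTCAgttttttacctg
The window upstream of Sohlh1, chr2:25847249-25847498 on the minus strand, is shown because it held 3 copies of CACGTG, starting 231, 211 and 192 bases before the start site, with 1 AGGTCA at 215 that overlaps the middle copy. Capitals mark AGGTCA and CANNTG.
Sohlh1: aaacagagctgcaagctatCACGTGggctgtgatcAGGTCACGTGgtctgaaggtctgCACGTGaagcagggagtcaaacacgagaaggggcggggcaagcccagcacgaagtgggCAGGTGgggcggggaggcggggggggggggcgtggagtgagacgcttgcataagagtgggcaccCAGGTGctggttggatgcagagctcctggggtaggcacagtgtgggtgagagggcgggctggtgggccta
Of 32851 windows of the same length in the RefSeq table, 14.0% held AGGTCA, 66.2% held CANNTG and 6.02% held CACGTG. These matches are a description of the letters and of no measured binding. Dmrtb1 has 2 RefSeq start sites 641 bases apart, and both upstream windows are shown because the length of its measured transcript differed between ages (given with its levels). The upstream one is chr4:107684231-107684480 and the downstream one chr4:107683590-107683839, both on the minus strand and with CANNTG in capitals. The downstream window lies inside the coding first exon of the longer transcript.
Dmrtb1 upstream start: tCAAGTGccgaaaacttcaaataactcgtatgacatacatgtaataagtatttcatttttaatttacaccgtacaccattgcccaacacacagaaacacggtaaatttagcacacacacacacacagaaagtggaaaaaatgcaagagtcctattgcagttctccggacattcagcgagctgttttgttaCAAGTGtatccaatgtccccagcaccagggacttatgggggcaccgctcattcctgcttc
Dmrtb1 downstream start: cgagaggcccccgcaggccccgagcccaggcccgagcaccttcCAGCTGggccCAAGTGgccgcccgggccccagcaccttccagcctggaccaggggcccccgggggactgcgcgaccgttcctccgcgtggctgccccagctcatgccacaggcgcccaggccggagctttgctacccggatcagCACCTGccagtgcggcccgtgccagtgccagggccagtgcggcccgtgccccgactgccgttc

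The libraries held 33000204 to 42629270 counts (median 38405047), of which the shared genes took 94.2 to 97.9%. WT P8, all INSL3-KI groups and WT P40 stand in the first table, and WT P23 and both INSL3-KO groups in the second, so that in a comparison across the tables the table and the genotype or age cannot be told apart. The transcript length implied by the counts and FPKM of Ythdc2 also differed between the tables, with medians of 7211 bases in WT at P8 and 6297 in INSL3-KO at P8, and its comparisons across the tables carry that difference in gene model. The levels given here are CPM, counts scaled to a common library total that was adjusted by TMM over all 24 libraries. Insl3 was at 63.5 to 79.7 CPM in WT at P8 and at 823 to 1023 in WT at P23 and P40. In INSL3-KI it was at 0.380 to 0.727 CPM at P8, 1.42 to 2.32 at P23 and 11.1 to 12.5 at P40. Counts on the mouse gene need not measure the minke whale transcript that these mice carry. The study reported, from RT-PCR and Western blotting, that INSL3-KI mice express the cetacean INSL3 only. In INSL3-KO Insl3 was at 0 to 0.115 CPM at P23, but the 3 libraries labelled INSL3-KO at P8 still held 13.5 to 17.9. From P8 to P23 Insl3 changed by -8.53 on the log2 scale in INSL3-KO and by 3.68 in WT. The origin of the reads in INSL3-KO at P8 was not tested. Whether the label of these P8 libraries holds was not tested either, and every INSL3-KO result at P8 rests on it. Several libraries stood apart from their groups. WT P8 replicate 1 was above its partners in every one of the 8 genes, and the summed level of 10 mast cell genes ran from 27.0 CPM there to 122 in WT P8 replicate 3. INSL3-KI P8 replicate 2 held 2021 CPM of 14 pachytene spermatocyte genes, against 212 and 172 in the other INSL3-KI libraries and 94.3 to 111 in WT. INSL3-KI P23 replicate 3 and INSL3-KI P40 replicate 1 differed from their partners in several of the 8 genes, as given with the results. Calls and counts that changed without 1 of these libraries are given beside the results.

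In WT testis the 8 genes did not share 1 course with age. From P8 to P23 the spermatogonial genes Kit and Sohlh1 fell, where 29% of all genes tested did. Dmrtb1, Rec8 and Ythdc2 rose, where 32.8% did, Dmrtb1 more than any other of the 8. The calls of Kit and Ythdc2 depended on the scaling, and that of Kit also on single libraries, as given below. Per transcript length, the mean level in WT at P8 was highest for Stra8, at 39.2 FPKM, the deposited fragments scaled for transcript length and depth, followed by Sohlh1 at 31.8, Sohlh2 at 19.0, Kit at 18.6, Dmrtb1 at 12.6, Rhox13 at 7.23, Rec8 at 5.98 and Ythdc2 at 3.30. At P23 this order was replaced by Dmrtb1 at 497 FPKM, far above Rec8 at 26.5, Stra8 at 10.4, Sohlh2 at 5.85, Ythdc2 at 5.32, Rhox13 at 4.82, Kit at 4.5 and Sohlh1 at 2.08. The levels that follow are CPM scaled by TMM over all 24 libraries, as above, and are given for replicates 1, 2 and 3. A gene is said to have risen or fallen only at an edgeR quasi-likelihood adjusted p under 0.01 and a fold of at least 2.

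Kit stood at 134, 67.5 and 64.3 CPM in WT at P8, at 40.1, 38.5 and 39.1 at P23 and at 43.9, 47.9 and 49.1 at P40. All P8 libraries were above all later ones, and P8 replicate 1 was well above its partners. Between P8 and P23 Kit fell by 1.21 ± 0.28 (SE) on the log2 scale (edgeR adjusted p = 0.00468), but it was at -0.17 and not called when libraries were scaled on 18 Sertoli cell genes in place of TMM. Without WT P8 replicate 1 the change of Kit was -0.78 and no longer reached a fold of 2, and without any 1 of the WT P23 libraries the adjusted p was 0.021 to 0.023. Sohlh1 stood at 55.4, 31.9 and 24.4 CPM at P8, at 4.12, 5.51 and 3.97 at P23 and at 4.59, 4.61 and 4.86 at P40. It fell by 3.07 ± 0.34 on the log2 scale from P8 to P23 (edgeR adjusted p = 7.7e-05), and the groups lay far apart. Its dimerization partner Sohlh2 stood at 54.4, 37.7 and 30.5 CPM, then at 21.3, 23.1 and 25.4 and then at 21.9, 24.3 and 22.5. The P8 libraries were above all others, with a log2 fold change of -0.85 ± 0.21 that stayed under a fold of 2 (edgeR adjusted p = 0.0064).

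Dmrtb1 stood at 39.3, 13.5 and 11.0 CPM in WT at P8, at 1099.9, 1156 and 1144 at P23 and at 980.3, 1044 and 981 at P40. The P23 mean was 53.2 times the P8 mean, and the log2 fold change was 5.70 ± 0.53 (edgeR adjusted p = 2.9e-05), or 6.5 without WT P8 replicate 1. Stra8 stood at 85.3, 35.0 and 32.7 CPM at P8, at 24.6, 25.3 and 25 at P23 and at 17.4, 20.8 and 26.8 at P40. The P8 libraries were the highest, but the fall to P23 did not pass the test at a log2 fold change of -1.06 ± 0.36 (edgeR adjusted p = 0.027). Rhox13 was low at every age, at 10.7, 4.16 and 2.36 CPM at P8, at 6.73, 7.66 and 6.94 at P23 and at 4.68, 4.29 and 6.64 at P40, and these groups overlapped. Its change from P8 to P23 was 0.27 ± 0.51 on the log2 scale and became a rise of 1.09 without WT P8 replicate 1 (edgeR adjusted p = 0.0077). Rec8 stood at 15.7, 8.98 and 11.1 CPM at P8, at 90.8, 103 and 95.6 at P23 and at 118, 119 and 75.7 at P40. It rose by 2.98 ± 0.20 on the log2 scale (edgeR adjusted p = 5.1e-06), with all later libraries above all P8 libraries. Ythdc2 stood at 25.5, 20.4 and 19.1 CPM at P8, at 57.2, 55.3 and 56.1 at P23 and at 47.8, 53.0 and 62.3 at P40. It rose by 1.34 ± 0.12 (edgeR adjusted p = 2.24e-05) under TMM, with no P8 library reaching the later ones, but by 0.59 and without a call when scaled on library size alone.

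From P8 to P23, a comparison across the tables, 2 of the 8 genes fell where 29% of 16908 genes tested did, and 3 rose where 32.8% did, with a median of -0.29 beside 0.01 over all genes. The split over all genes depended on the scaling, with 4908 lower and 5554 higher under TMM, 7237 and 4236 by library size and 2380 and 8089 by Sertoli cell genes. Within the first table, from P8 to P40, 1 of the 8 fell (27.8% of genes) and 3 rose (31.9%), where 4704 genes were lower and 5388 higher under TMM, 6898 and 4200 by library size and 1686 and 8622 by Sertoli cell genes. Sohlh1 fell by 3.03 ± 0.31 on the log2 scale there (edgeR adjusted p = 4.6e-05), while Dmrtb1 rose by 5.51 ± 0.52 (edgeR adjusted p = 2.8e-05), Rec8 by 3.08 ± 0.26 (edgeR adjusted p = 1.3e-05) and Ythdc2 by 1.28 ± 0.15 (edgeR adjusted p = 0.00011). Between P23 and P40 edgeR called none of the 8 in WT, against 1.64% of all genes lower and 3% higher (270 and 493 genes, or 161 and 883 by Sertoli cell genes), with 2 of the 8 at an unadjusted p under 0.05 (1 lower, 1 higher) and none called by DESeq2. The WT P23 libraries, in the second table, also held more of 19 spermatid genes than WT P40, at 30102 to 32604 CPM against 19934 to 24977. Every comparison of a mutant with WT at P23 rests on these same WT libraries. Whether this excess bears on those comparisons or on the age comparison was not tested.

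**Figure D1:**
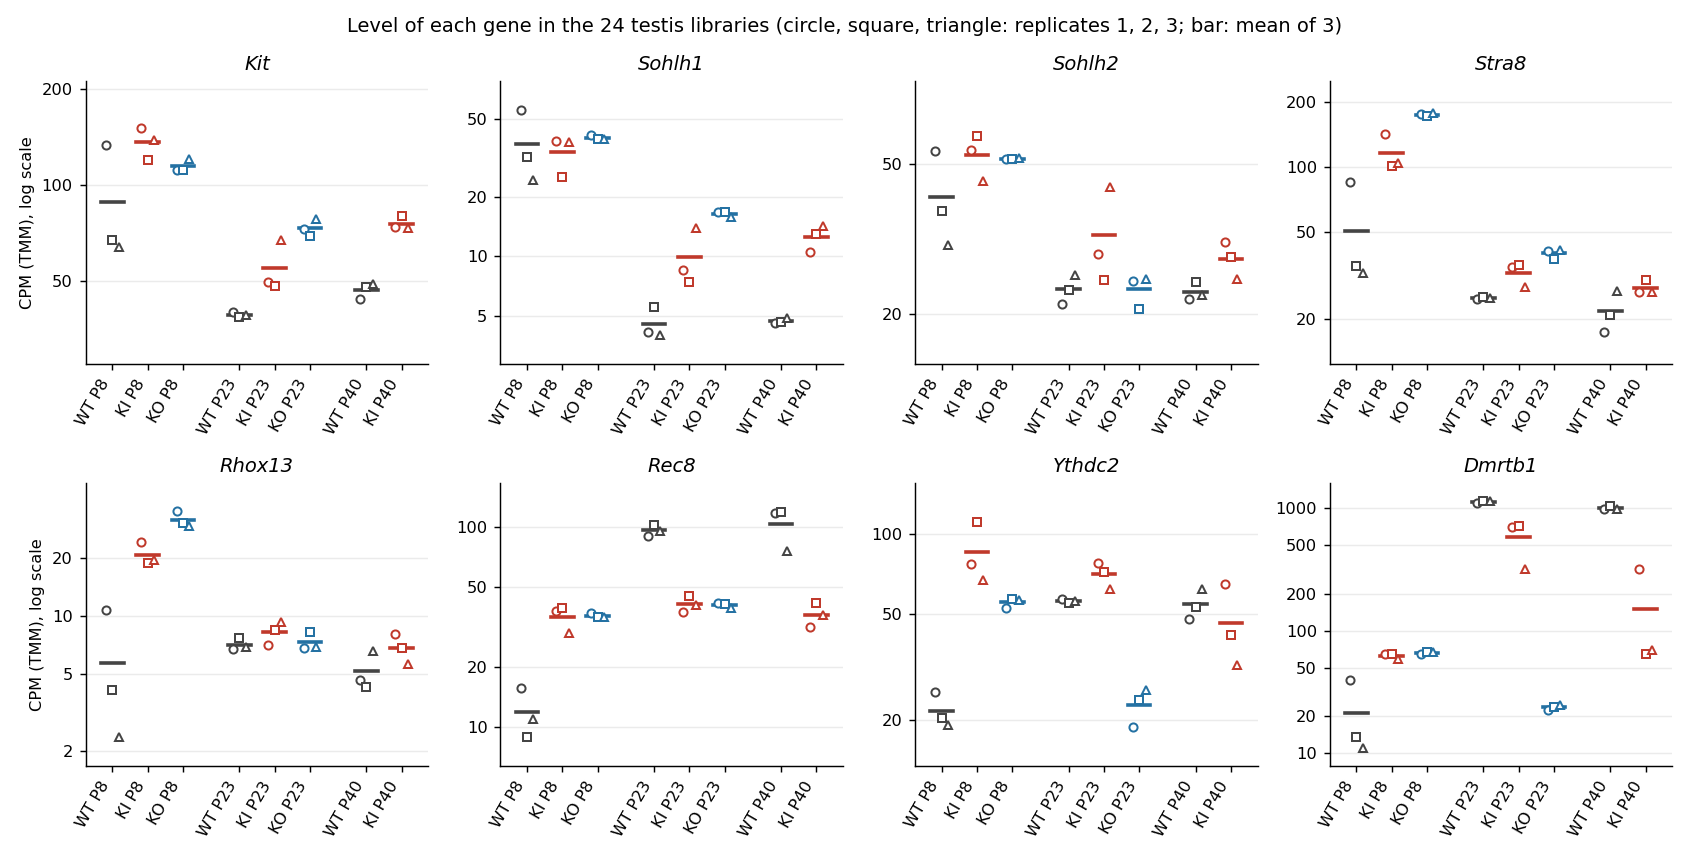
Level of each of the 8 genes in every testis library (TMM-scaled CPM, log axis) by group, with 1 point per library and a bar at the group mean. Dmrtb1 runs from 11.0 CPM in a WT P8 library to 1156 in a WT P23 library, and in the INSL3-KO P23 libraries it stands at 22.6 to 24.6.

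At P8, the question is whether the mutants already differ from WT in the genes that start differentiation and meiosis. The meiotic entry genes Stra8, Rhox13, Dmrtb1, Rec8 and Ythdc2 were higher in the mean of both mutants than in WT, by 2.27 to 5.48 times, whereas Sohlh1 and Sohlh2 lay within a factor of 1.30. In INSL3-KI against WT, which both stand in the first table, 2 of the 8 genes rose, Rec8 and Ythdc2, where 3.03% of 15702 genes tested did, and none fell (3.25%), with 5 of the 8 at an unadjusted p under 0.05 and all of these higher. DESeq2 called those 5, Stra8, Dmrtb1, Rec8, Rhox13 and Ythdc2. In INSL3-KO against WT, across the tables, 4 rose, Stra8, Rec8, Rhox13 and Ythdc2, where 5.44% of 15723 genes did, and none fell (8.37%), again with 5 higher at an unadjusted p under 0.05 and 5 called by DESeq2. The median log2 fold change of the 8 was 1.43 for INSL3-KI against 1.5 for INSL3-KO, beside medians over all genes of 0.00 and -0.02. The 3 WT libraries are common to these comparisons. Scaling on Sertoli cell genes moved the median of all genes by -0.30 in INSL3-KI and -0.77 in INSL3-KO. It left Rec8 and Ythdc2 called in INSL3-KI, at 1.36 and 1.78, but in INSL3-KO it left only Rhox13, at 1.77, with Stra8 at 1.06, Rec8 at 0.86 and Ythdc2 at 0.63 no longer called. Over all genes INSL3-KI had 511 lower and 476 higher under TMM, 311 and 607 by library size and 1330 and 274 by Sertoli cell genes, and INSL3-KO had 1316 and 855, 1066 and 1122, and 4907 and 266.

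Rec8, at 15.7, 8.98 and 11.1 CPM in WT, stood at 38.4, 39.3 and 29.4 CPM in INSL3-KI and at 37.2, 35.4 and 35.6 in INSL3-KO. Every mutant library was above every WT library, with log2 fold changes of 1.64 ± 0.23 (edgeR adjusted p = 0.0055) and 1.62 ± 0.19 (edgeR adjusted p = 0.00043). Ythdc2, at 19.1 to 25.5 CPM in WT, stood at 77.2, 112 and 67.4 in INSL3-KI and at 53.0, 57.2 and 56.6 in INSL3-KO. The groups did not overlap, INSL3-KI replicate 2 was the highest library, and Ythdc2 rose by 2.04 ± 0.21 (edgeR adjusted p = 0.0038) and 1.38 ± 0.12 (edgeR adjusted p = 1e-04). The helicase's partner Meioc, at 20.9, 3.58 and 3.17 CPM in WT, stood at 126, 217 and 116 in INSL3-KI, where it did not pass the test (log2 fold change 4.11, edgeR adjusted p = 0.012), and at 109, 108 and 115 in INSL3-KO, where it rose by 3.61 (edgeR adjusted p = 0.0040).

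Stra8, at 85.3, 35.0 and 32.7 CPM in WT, stood at 142, 101 and 104 CPM in INSL3-KI and at 175, 171 and 178 in INSL3-KO. All mutant libraries were above WT, INSL3-KO most so, and Stra8 rose in INSL3-KO by 1.80 ± 0.36 (edgeR adjusted p = 0.0044), while in INSL3-KI the log2 fold change was 1.25 ± 0.39 (edgeR adjusted p = 0.047). Rhox13, at 10.7, 4.16 and 2.36 CPM in WT, stood at 24.1, 18.8 and 19.4 in INSL3-KI and at 34.9, 30.2 and 29.3 in INSL3-KO. No mutant library reached down to the WT range, and Rhox13 rose in INSL3-KO by 2.48 ± 0.49 (edgeR adjusted p = 0.0042), with 1.92 ± 0.53 in INSL3-KI (edgeR adjusted p = 0.033). Dmrtb1, at 39.3, 13.5 and 11.0 CPM in WT, stood at 64.2, 64.7 and 58.5 in INSL3-KI and at 64.9, 67.6 and 66.5 in INSL3-KO. The mutants lay close together and above WT, with log2 fold changes of 1.62 ± 0.47 (edgeR adjusted p = 0.038) and 1.66 ± 0.45 (edgeR adjusted p = 0.016) that did not pass the threshold.

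The spermatogonial genes differed less. Kit, at 134, 67.5 and 64.3 CPM in WT, stood at 152, 120.4 and 139 in INSL3-KI and at 112, 112 and 121 in INSL3-KO, and WT replicate 1 overlapped both mutants. Its log2 fold changes were 0.69 ± 0.30 (edgeR adjusted p = 0.11) and 0.40 ± 0.27 (edgeR adjusted p = 0.25). Sohlh1 stood at 38.4, 25.2 and 37.9 CPM in INSL3-KI and at 41.2, 39.5 and 39.3 in INSL3-KO, inside the WT range of 24.4 to 55.4, with log2 fold changes of -0.07 ± 0.33 and 0.13 ± 0.27. Sohlh2 stood at 54.5, 59.5 and 45.1 CPM and at 51.7, 51.6 and 52.2 beside 54.4, 37.7 and 30.5 in WT, with log2 fold changes of 0.44 ± 0.22 and 0.37 ± 0.19, and neither passed the test.

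The number of these genes called at P8 depended on single libraries of WT and of both mutants. Without WT replicate 1, Kit, Stra8, Dmrtb1 and Rhox13 were called higher in INSL3-KI beside Rec8 and Ythdc2, 6 in all. Kit, Stra8, Dmrtb1 and Rhox13 then stood at log2 fold changes of 1.08, 1.80, 2.38 and 2.70. The count was also 6 when INSL3-KI replicate 2, the library with pachytene genes, was left out together with WT replicate 1. Dmrtb1 joined the INSL3-KO calls at 2.49 without WT replicate 1, which made 5. Without INSL3-KI replicate 1 or 3, or WT replicate 2 or 3, Rec8 and Ythdc2 kept log2 fold changes of 1.5 to 2.17 in INSL3-KI but the adjusted p rose to 0.012 to 0.034, so that none of the 8 was called. In those 4 fits edgeR called 0 to 3 genes lower and 0 to 11 higher over all genes, in place of 511 and 476, although 2888 to 3660 were lower and 2852 to 3568 higher at an unadjusted p under 0.05. Stra8 and Rhox13 likewise lost their INSL3-KO calls without WT replicate 2 or any 1 INSL3-KO library, at adjusted p of 0.016 to 0.022, while Rec8 and Ythdc2 remained called.

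Between the mutants at P8, across the tables, none of the 8 passed the test, against 1.16% of genes lower in INSL3-KI and 2.76% higher (183 and 434 genes, or 53 and 1630 by Sertoli cell genes). By edgeR 4 of the 8 had an unadjusted p under 0.05, 2 in each direction, and DESeq2 called none. The largest differences were 0.64 ± 0.18 for Ythdc2 (edgeR adjusted p = 0.033), -0.58 ± 0.13 for Rhox13 (edgeR adjusted p = 0.016) and -0.57 ± 0.14 for Stra8 (edgeR adjusted p = 0.020) on the log2 scale.

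Among the closest partners of the 8 genes, a list of 17, INSL3-KI had 1 lower, the cyclin Ccnd2 at -1.83, and 3 higher at P8, Tex101 at 3.66, the histone methyltransferase Prdm9 at 3.47 and Tex15 at 2.0 on the log2 scale. In INSL3-KO 1 was lower and 7 higher (5 under the Sertoli cell scaling), among them Meioc at 3.61 and the RNA-binding factor Dazl at 1.09, and the medians were 1.19 and 0.92. Of 29 early meiosis genes tested, 22 rose in INSL3-KI and 27 in INSL3-KO and none fell, with medians of 2.80 and 2.70. The axis gene Sycp3 stood at 21.9, 11.9 and 8.51 CPM in WT, at 134, 245 and 102 in INSL3-KI and at 167, 169 and 166 in INSL3-KO, and it rose by 3.56 and 3.6 on the log2 scale. The partner and early meiosis counts of INSL3-KI were 0 without INSL3-KI replicate 1 or 3 or WT replicate 2 or 3, as was every other list count of INSL3-KI at P8 given here. Without WT replicate 1, 8 partners and 20 early meiosis genes were higher in INSL3-KI, and without INSL3-KI replicate 2 these were 3 and 18. Without any 1 library 21 to 27 early meiosis genes stayed higher in INSL3-KO, while the partners higher there ran from 3, without INSL3-KO replicate 1 or 2, to 12, without WT replicate 1. Meioc remained called in INSL3-KO without WT replicate 1 or 3 and lost its call in the other 4 fits, at log2 fold changes of 3.22 to 3.63. Of 22 genes of undifferentiated spermatogonia, 1 rose in INSL3-KI under TMM, Taf4b, and in INSL3-KO 5 fell and 1 rose, against 4 and 11 lower and none higher under the Sertoli cell scaling. The GDNF receptor genes Ret and Gfra1 fell in INSL3-KO by 1.79 and by 1.17. Zbtb16, a factor of the undifferentiated state, did not pass the test in either mutant, at log2 fold changes of -0.18 and -0.98. Of 22 genes of the retinoic acid pathway, 1 rose in INSL3-KI under TMM and none fell, and in INSL3-KO 1 fell and 3 rose, against 3 lower and none higher and 6 lower and 1 higher under the Sertoli cell scaling. The retinoic acid hydroxylase gene Cyp26a1 was at 2.06 in INSL3-KI, and INSL3-KO had Cyp26a1 at 2.18, the carrier gene Rbp4 at 1.72 and the synthesis gene Aldh1a2 at 1.08. Cyp26b1 and the receptor gene Rarg did not pass the test in either mutant.

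Markers of other cells also differed at P8. Of 20 Sertoli cell genes, 3 rose and 1 fell in INSL3-KI and 6 rose and 2 fell in INSL3-KO under TMM, with summed levels of 6318 to 7256 and 8518 to 8727 CPM beside 5352 to 7127 in WT. Of 10 Leydig cell genes, 5 fell and 1 rose in INSL3-KI and 3 fell and 1 rose in INSL3-KO, with summed levels of 649 to 674 and 895 to 916 CPM beside 1249 to 1462 in WT. Of 10 peritubular myoid and endothelial genes, 1 fell in INSL3-KI and 4 in INSL3-KO. Of 12 pachytene genes tested, none was called in INSL3-KI (median 2.20) and 3 rose in INSL3-KO (median 0.80), and of the spermatid genes 0 of 7 and 2 of 8 were called. None of 12 macrophage genes and none of 6 mast cell genes tested was called in either under TMM. The part of these cells in the differences of the 8 genes was not tested.

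At P23 the mutants differed from each other in Dmrtb1 and Ythdc2, where 25.2% of all genes tested were higher in INSL3-KI and 13% lower. Rec8 fell against WT in both, by 1.22 and by 1.18 on the log2 scale, whereas Dmrtb1 and Ythdc2 fell in INSL3-KO and stood higher in INSL3-KI than INSL3-KO. In INSL3-KO against WT, both in the second table, 3 of the 8 fell, Dmrtb1, Rec8 and Ythdc2, where 33.4% of 16732 genes tested fell, and 1 rose, Sohlh1, where 31.1% did. In INSL3-KI against WT, across the tables, 1 of the 8 fell, Rec8, where 11.8% of 16603 genes did, and none rose (8.81%), with 6 of the 8 at an unadjusted p under 0.05 (2 lower, 4 higher), and DESeq2 called 2 lower and 1 higher. The median log2 fold change of the 8 was 0.08 for INSL3-KO against 0.37 for INSL3-KI, beside 0.06 and 0.08 over all genes. The WT libraries are shared by the 2 comparisons.

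Dmrtb1, at 1099.9, 1156 and 1144 CPM in WT, stood at 707, 719 and 318 in INSL3-KI and at 22.6, 23.7 and 24.6 in INSL3-KO. The groups were apart, and INSL3-KI replicate 3 was the lowest of its group. The INSL3-KO mean was lower by a factor of 48.0, and Dmrtb1 fell by 5.53 ± 0.05 on the log2 scale (edgeR adjusted p = 2.6e-13), while in INSL3-KI the change of -0.96 ± 0.32 did not pass the test (edgeR adjusted p = 0.043) and was -0.67, still under a fold of 2, without INSL3-KI replicate 3. Ythdc2, at 57.2, 55.3 and 56.1 CPM in WT, stood at 78.0, 72.2 and 62.4 in INSL3-KI and at 18.8, 23.7 and 25.8 in INSL3-KO. INSL3-KI lay above WT and INSL3-KO below it, with log2 fold changes of 0.34 ± 0.13 (edgeR adjusted p = 0.059) and -1.25 ± 0.10 (edgeR adjusted p = 1.2e-06). Rec8, at 90.8, 103 and 95.6 CPM in WT, stood at 37.6, 45.2 and 40.9 in INSL3-KI and at 41.9, 41.4 and 39.7 in INSL3-KO. Both mutants lay below WT and overlapped each other, and Rec8 fell by 1.22 ± 0.13 (edgeR adjusted p = 0.0013) and by 1.18 ± 0.07 (edgeR adjusted p = 5e-08). Scaled on library size alone, the fall in INSL3-KO of Rec8 was 0.54 and of Ythdc2 0.61, and neither was called, nor was that of Rec8 in INSL3-KI. The INSL3-KI call of Rec8 was lost without any 1 WT library, at adjusted p of 0.011 to 0.013. Over all genes those 3 fits called 282 to 313 lower and 90 to 103 higher in INSL3-KI, in place of 1966 and 1462, and without INSL3-KI replicate 1 the counts were 460 and 318.

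Sohlh1, at 4.12, 5.51 and 3.97 CPM in WT, stood at 8.49, 7.38 and 13.8 in INSL3-KI and at 16.8, 16.7 and 15.8 in INSL3-KO. The groups did not overlap, and Sohlh1 rose in INSL3-KO by 1.91 ± 0.15 (edgeR adjusted p = 7.7e-07) under TMM but was at -0.56 and not called under the Sertoli cell scaling. In INSL3-KI its log2 fold change was 1.14 ± 0.31 (edgeR adjusted p = 0.021). Kit stood at 49.6, 48.5 and 67.4 CPM in INSL3-KI and at 73.2, 69.2 and 78.5 in INSL3-KO, above the 38.5 to 40.1 of WT in every library. Stra8 stood at 34.7, 35.3 and 28.1 CPM and at 40.9, 37.9 and 41.5, above the 24.6 to 25.3 of WT. In INSL3-KO these differences stayed under a fold of 2, at 0.96 ± 0.06 for Kit (edgeR adjusted p = 2e-07) and 0.73 ± 0.07 for Stra8 (edgeR adjusted p = 2.7e-06), and under the Sertoli cell scaling they turned to -1.51 and -1.74. Sohlh2 stood at 29.0, 24.7 and 43.5 CPM in INSL3-KI and at 24.5, 20.6 and 24.8 in INSL3-KO beside 21.3, 23.1 and 25.4 in WT. Rhox13 stood at 7.08, 8.45 and 9.27 CPM and at 6.86, 8.26 and 6.94 beside 6.73, 7.66 and 6.94 in WT. For both genes the groups overlapped and the test was not passed.

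Directly compared at P23, across the tables, INSL3-KI exceeded INSL3-KO in 2 of the 8 genes (25.2% of 16379 genes tested were higher and 13% lower). Dmrtb1 was higher by 4.63 ± 0.36 on the log2 scale (edgeR adjusted p = 0.00017) and Ythdc2 by 1.64 ± 0.17 (edgeR adjusted p = 0.00039), while Rec8 differed by 0.01 ± 0.12. Without INSL3-KI replicate 3 the first 2 stood at 4.91 and 1.72 and remained called. Over all genes 2131 were lower and 4131 higher, or 74 and 10651 by Sertoli cell genes. Without INSL3-KI replicate 3 they were 3599 and 4902, and without any other library 723 to 1278 and 2923 to 3439. None of the 8 was lower past the threshold, but Sohlh1 was called lower at -1.05 when INSL3-KI replicate 3 was left out.

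The composition of the P23 libraries differed widely. In INSL3-KO all 19 spermatid genes and all 14 pachytene genes were lower, with summed levels of 111 to 120.1 and 183 to 194 CPM beside 30102 to 32604 and 14479 to 15029 in WT, and all 20 Sertoli cell genes were higher, at 15399 to 15643 beside 3427 to 3537 CPM. In INSL3-KI 15 of 19 spermatid genes were lower and 5 of 19 Sertoli cell genes higher. Its replicates 1, 2 and 3 held 3953, 4612 and 1509 CPM of the spermatid genes, 9894, 10285 and 4514 of the pachytene genes and 4232, 3261 and 8211 of the Sertoli cell genes, so that replicate 3 stood apart in all of these lists. Without replicate 3, 19 spermatid genes were lower and 6 Sertoli cell genes higher, and without replicate 2, 13 and 10. Without INSL3-KI replicate 1 or any 1 WT library no spermatid gene was called, and at most 1 Sertoli cell gene was. Macrophage genes were higher in INSL3-KO in 11 of 12 under TMM and in none under the Sertoli cell scaling. Scaling on the Sertoli cell genes shifted the median of all genes by -2.47 on the log2 scale in INSL3-KO, where it left 12450 genes lower and 129 higher in place of 5584 and 5199, and by -0.70 in INSL3-KI, where it left 1549 lower and 291 higher in place of 1966 and 1462. Scaling on library size alone shifted the medians by 0.64 and 0.47 and left 4537 lower and 7188 higher in INSL3-KO and 1450 and 3607 in INSL3-KI. Relative to the median gene, neither scaling moved any of the 8 from its TMM value by more than 0.16 in any comparison. The part of these cells in the levels of the 8 genes was not tested.

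Kitl, the ligand of Kit made by Sertoli cells, stood at 40.2, 35.1 and 35.1 CPM in WT, at 68.4, 48.8 and 148 in INSL3-KI and at 290.1, 269 and 286 in INSL3-KO, where it rose by 2.99 on the log2 scale under TMM (edgeR adjusted p = 3.78e-11). Meioc stood at 282, 264 and 259.6 CPM in WT, at 315, 298 and 170.4 in INSL3-KI and at 16.7, 17.8 and 18 in INSL3-KO, where it fell by 3.88 (edgeR adjusted p = 3.3e-12). Over the 17 partners, 7 were lower and 4 higher in INSL3-KO (none higher and 13 lower under the Sertoli cell scaling), and 2 were higher in INSL3-KI, Ccnd2 at 2.22 and Dmrt1 at 1.07 (1 lower and 1 higher under the Sertoli cell scaling). Of 29 early meiosis genes, 22 were lower in INSL3-KO and 3 in INSL3-KI and none higher under TMM, with medians of -2.84 and -0.31 and Sycp3 at -2.84 and -0.55. Of the undifferentiated spermatogonia genes, 13 of 22 were higher and 3 lower in INSL3-KO under TMM, led by Ret at 3.17, Pax7 at 2.98 and Nanos2 at 2.93, but none was higher and 10 were lower under the Sertoli cell scaling. In INSL3-KI 6 of 20 were higher and 2 lower, with Zbtb16 at 2.47 and Gfra1 at -1.15 (2 higher and 2 lower under the Sertoli cell scaling). Of the retinoic acid pathway genes, 10 of 21 were higher and 5 lower in INSL3-KO (none higher and 13 lower under the Sertoli cell scaling), with the retinol esterification gene Lrat at -6.41 and Aldh1a2 at -1.81. In INSL3-KI 5 of 20 were higher and 3 lower (none higher and 2 lower under the Sertoli cell scaling), with Lrat at -1.64. Without any 1 WT library no partner, undifferentiated spermatogonia gene or retinoic acid pathway gene was called in INSL3-KI at P23, and 2 early meiosis genes were lower.

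At P40, in INSL3-KI against WT within the first table, 1 of the 8 fell, Rec8, where 22.1% of 16677 genes tested did, and 1 rose, Sohlh1, where 25.6% did. The median log2 fold change of the 8 was 0.37 beside 0.09 over all genes. Rec8, at 118, 119 and 75.7 CPM in WT, stood at 31.6, 41.9 and 36.2 in INSL3-KI. The groups were apart, and Rec8 fell by 1.46 ± 0.22 on the log2 scale (edgeR adjusted p = 0.00155), although by only 0.83 and without a call when scaled on library size alone. Dmrtb1, at 980.3, 1044 and 981 CPM in WT, stood at 321, 64.8 and 69.0 in INSL3-KI. All INSL3-KI libraries were below WT, but replicate 1 was far above its partners, and the log2 fold change of -2.71 ± 0.67 just missed the threshold (edgeR adjusted p = 0.0105). Without that library it was -3.83 and called (edgeR adjusted p = 1.4e-08).

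Sohlh1, at 4.59, 4.61 and 4.86 CPM in WT at P40, stood at 10.5, 12.9 and 14.2 in INSL3-KI, with no overlap. It rose by 1.47 ± 0.18 under TMM (edgeR adjusted p = 0.00073), against -0.55 and no call under the Sertoli cell scaling. Kit stood at 73.8, 80.3 and 73.7 CPM beside 43.9, 47.9 and 49.1 in WT, again with no overlap, at a log2 fold change of 0.74 ± 0.11 that was under a fold of 2 (edgeR adjusted p = 0.0015) and that turned to -1.27 under the Sertoli cell scaling. Stra8 stood at 26.6, 30.2 and 26.5 CPM beside 17.4, 20.8 and 26.8 in WT, and Sohlh2 at 31.1, 28.4 and 24.8 beside 21.9, 24.3 and 22.5. The ranges overlapped for Stra8 and lay close for Sohlh2, and neither passed the test, at 0.41 ± 0.19 and 0.34 ± 0.11. Rhox13 stood at 8.08, 6.82 and 5.64 CPM beside 4.68, 4.29 and 6.64 in WT, and Ythdc2 at 64.7, 41.8 and 32.3 beside 47.8, 53.0 and 62.3. Both overlapped WT, at log2 fold changes of 0.43 ± 0.24 and -0.20 ± 0.25.

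Of the partners at P40, Kitl rose by 2.66 and Dmrt1 by 1.78 in INSL3-KI under TMM, in a list of 17 with 1 lower and 4 higher (none higher and 11 lower under the Sertoli cell scaling). Meioc stood at 175, 53.8 and 41.5 CPM beside 212, 256 and 271 in WT and did not pass the test. Early meiosis genes were lower in 3 of 29 and higher in 1, with a median of -1.02, against 23 lower and none higher under the Sertoli cell scaling. INSL3-KI replicate 1 held 2046 CPM of the early meiosis genes beside 833 and 683 in its partners. Without it 18 early meiosis genes were lower and 1 higher, 6 partners were lower and 4 higher, Meioc was called at -2.30, and all 14 pachytene genes were lower where 1 had been. Without another library 1 to 4 early meiosis genes were lower. Retinoic acid pathway genes were higher in 9 of 20 and lower in 3, against none and 9. Undifferentiated spermatogonia genes were higher in 10 of 22 and lower in none under TMM, with Zbtb16 at 2.42, against none higher and 6 lower under the Sertoli cell scaling. Beside these values, 16 of 19 spermatid genes were lower in INSL3-KI, at 282 to 1445 CPM in sum beside 19934 to 24977, and 19 of 20 Sertoli cell genes were higher, at 8116 to 11413 beside 2620.2 to 2905. Macrophage genes were higher in 11 of 12 under TMM and in none under the Sertoli cell scaling. That scaling shifted the median of all genes by -2.0 and left 10978 genes lower and 48 higher in place of 3690 and 4264, and library size shifted it by 0.61 and left 2458 and 6583. Without WT replicate 1 or 2 under TMM, 2268 and 2291 genes were lower. The part of these cells in the result was not tested.

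**Figure D2:**
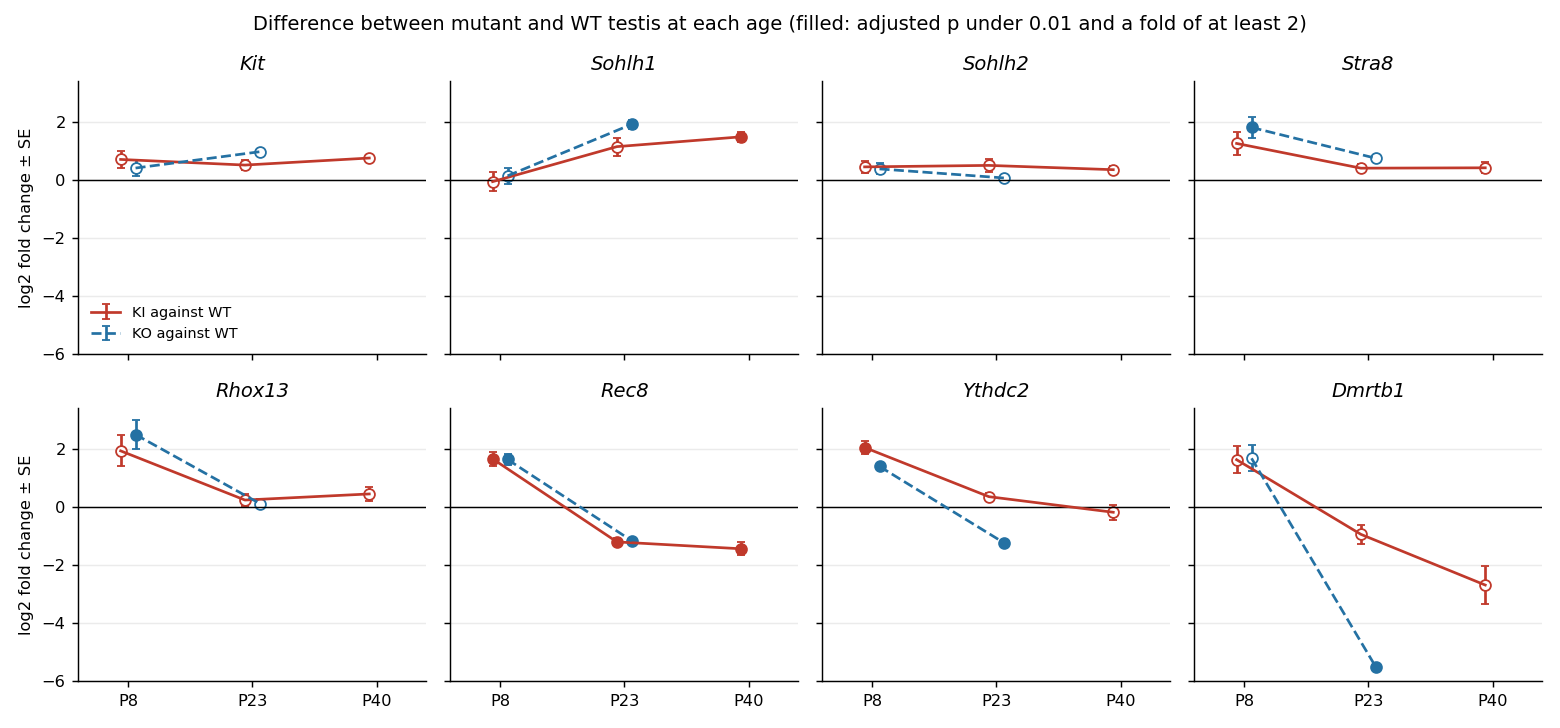
Log2 fold change of each of the 8 genes in INSL3-KI and INSL3-KO against WT testis at P8, P23 and P40 (edgeR, TMM, error bars 1 SE), filled where the adjusted p was under 0.01 and the fold at least 2. Rec8 runs from 1.64 in INSL3-KI at P8 to -1.46 at P40, and Dmrtb1 in INSL3-KO from 1.66 at P8 to -5.53 at P23.

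Whether the INSL3-KI effect differed between ages was tested as an interaction. From P8 to P40, within the first table, it was lower at the later age for 3 of the 8 genes, where 22.5% of 17354 genes tested were, and higher for none (23.2%), with 1 higher at an unadjusted p under 0.05 and DESeq2 calling 1 higher. The difference was -4.42 ± 0.88 log2 units for Dmrtb1 (edgeR adjusted p = 0.0014), -3.18 ± 0.35 for Rec8 (edgeR adjusted p = 4.5e-05) and -2.31 ± 0.34 for Ythdc2 (edgeR adjusted p = 0.00022). From P8 to P23, where WT P23 stands in the second table, the same 3 genes were called lower (9.63% of 17419 genes) and none higher (13.2%), with 1 higher at an unadjusted p under 0.05 and none by DESeq2. The differences were -2.57 ± 0.65 for Dmrtb1 (edgeR adjusted p = 0.0094), -2.88 ± 0.27 for Rec8 (edgeR adjusted p = 6.1e-05) and -1.71 ± 0.26 for Ythdc2 (edgeR adjusted p = 0.00062). Without WT P8 replicate 1 both tests called 5 genes lower, and the call of Dmrtb1 at P23 was lost by library size (adjusted p = 0.012), under the Sertoli cell scaling (adjusted p = 0.015) and without INSL3-KI P23 replicate 3 (adjusted p = 0.014) or INSL3-KI P8 replicate 2 (adjusted p = 0.016). For Kit, Sohlh2 and Stra8 the interaction did not pass the test at either age, with differences from -0.92 to 0.02 log2 units. Over all genes, 3902 were lower and 4020 higher in the P40 test under TMM, 2591 and 5823 by library size and 8645 and 559 by Sertoli cell genes, and in the P23 test 1677 and 2298, 1240 and 3357, and 1304 and 1217.

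The course of the 8 genes within each mutant was tested as well. From P8 to P23 in INSL3-KO, within the second table, 6 of the 8 fell (11.7% of 15773 genes) and none rose (12%), with 1 of the 8, Rec8, higher at an unadjusted p under 0.05 and none higher by DESeq2. Stra8 fell by 2.10 ± 0.05, Rhox13 by 2.08 ± 0.11, Dmrtb1 by 1.47 ± 0.06, Sohlh1 and Ythdc2 by 1.27 each and Sohlh2 by 1.14 ± 0.07 on the log2 scale, with edgeR adjusted p of at most 8.3e-08. Kit fell short of a fold of 2 at -0.62 ± 0.05, and Rec8 differed by 0.20 ± 0.06, or by -0.51 under the Sertoli cell scaling. Over all genes 1844 fell and 1887 rose, against 2651 and 1396 by library size and 5185 and 897 by Sertoli cell genes. In INSL3-KI, within the first table, 4 fell over the same ages (3.53% of 16412 genes), Kit by 1.45 ± 0.19, Stra8 by 1.96 ± 0.20, Sohlh1 by 1.91 ± 0.31 and Rhox13 by 1.47 ± 0.20, and Dmrtb1 rose by 3.08 ± 0.35 (5.7%), all at an edgeR adjusted p of 0.0086 to 0.0092. Over all genes 580 fell and 935 rose, or 979 and 1020 by library size. These 5 calls were lost without INSL3-KI P23 replicate 1 or 2 or INSL3-KI P8 replicate 1 or 3, at adjusted p of 0.033 to 0.048. In those 4 fits edgeR called no gene at all, although 3015 to 3352 were lower and 3673 to 3872 higher at an unadjusted p under 0.05. The counts were 1666 lower and 2869 higher without INSL3-KI P23 replicate 3, 807 and 2006 without INSL3-KI P8 replicate 2 and 1433 and 3478 by DESeq2 on all libraries. EdgeR also called no gene here under the Sertoli cell scaling.

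From P23 to P40 in INSL3-KI edgeR called 0% of 16328 genes in each direction and none of the 8, although 3955 genes were lower and 3660 higher at an unadjusted p under 0.05, 1 of the 8 in each direction, and DESeq2 called 875 genes lower and 301 higher and none of the 8. Dmrtb1 had a log2 fold change of -1.96 ± 0.73 (edgeR adjusted p = 0.10). With INSL3-KI P23 replicate 3 and INSL3-KI P40 replicate 1 left out together, a choice made after seeing the data, 4304 genes were called lower and 3320 higher, with Dmrtb1 at -3.40 and Ythdc2 at -1.0 among those lower.

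Across the 8 groups each gene had its own order of levels. Kit was highest in INSL3-KI at P8 (137 ± 15.8 CPM, SD, n = 3), followed by INSL3-KO and WT at P8, INSL3-KI at P40 and INSL3-KO at P23, neighbours whose libraries overlapped, and it was lowest in WT at P23 (39.2 ± 0.788). Stra8 was highest in INSL3-KO at P8 (174 ± 3.43), apart from INSL3-KI at P8 (116 ± 22.6), which was apart from WT at P8 (51.0 ± 29.7), and lowest in WT at P40 (21.7 ± 4.80), which overlapped WT at P23. Sohlh1 was highest in the 3 groups at P8, which overlapped, and lowest in WT at P40 and P23, which also overlapped. Sohlh2 ran from 53.0 ± 7.31 CPM in INSL3-KI at P8 to 22.9 ± 1.24 in WT at P40, and every neighbour in that order overlapped the next. Dmrtb1 was highest in WT at P23 (1133 ± 29.4), then in WT at P40 (1002 ± 36.3), and lowest in INSL3-KO at P23 (23.6 ± 1.0) and WT at P8 (21.3 ± 15.7), which overlapped.

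Rec8 was highest in WT at P40 (104 ± 24.8 CPM) and P23 (96.5 ± 6.17), which overlapped each other and lay apart from the 5 mutant groups. Those ran from 41.2 ± 3.80 down to 35.7 ± 5.45 with every neighbour overlapping, and WT at P8 was apart below them (11.9 ± 3.43). Rhox13 was highest in INSL3-KO at P8 (31.5 ± 3.02), apart from INSL3-KI at P8 (20.8 ± 2.89), which was apart from the 6 remaining groups, whose means of 5.20 to 8.26 CPM belonged to overlapping neighbours. Ythdc2 was highest in INSL3-KI at P8 (85.4 ± 23.2) and P23 (70.9 ± 7.86), then in 4 overlapping groups from WT at P23 (56.2 ± 0.983) to INSL3-KI at P40 (46.3 ± 16.7), and lowest in INSL3-KO at P23 (22.8 ± 3.59) and WT at P8 (21.7 ± 3.36), which overlapped. This order compares libraries of both tables.

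The deposited counts and FPKM together imply the transcript length with which each library was scaled. For Sohlh1, Sohlh2 and Rhox13, each with 1 annotated transcript, this length was nearly the same in every library, and these genes set the scale, on which Sohlh1 ran from 1288 to 1302 bases beside an annotated 1289. For Dmrtb1 it differed between groups. In WT at P8 it was 1860, 1861 and 1860 bases, beside an annotated length of 1861 for the longer protein-coding transcript, Dmrtb1-201. In WT at P23 it was 1353, 1370 and 1354 bases and at P40 1370.4, 1395 and 1358, close to the 1327 of the shorter one, Dmrtb1-203, which starts within a few bases of the downstream site. In INSL3-KI the length was 1860, 1747 and 1838 bases at P8, 1394, 1405 and 1496 at P23 and 1518, 1713 and 1726 at P40. In INSL3-KO it was 1858, 1859 and 1860 at P8 and 1669, 1808 and 1809 at P23. The libraries with the most Dmrtb1 had the lengths nearest to the shorter transcript, and INSL3-KI P8 replicate 2, the library with pachytene genes, had the shortest length of the P8 libraries. How the authors' software apportioned reads between transcripts is not given in the sources used here.

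**Figure D3:**
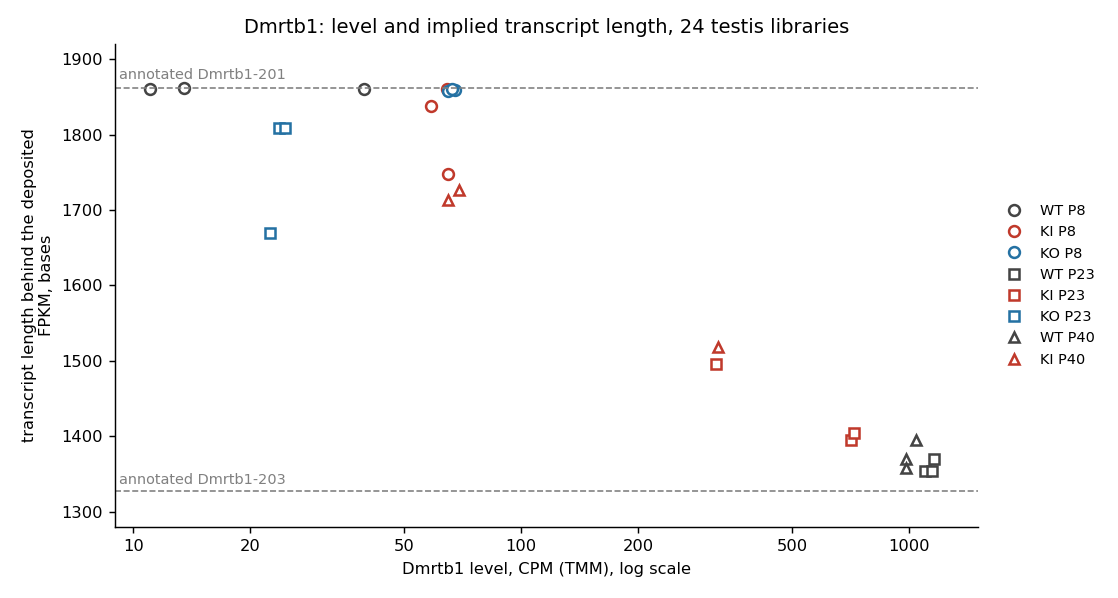
Implied transcript length of Dmrtb1 (bases, scaled to the annotation) against its level (TMM-scaled CPM, log axis) in each testis library, with the annotated lengths of its 2 protein-coding transcripts as lines. WT P23 and P40 libraries sit at 1353 to 1395 bases and 980.3 to 1156 CPM, and WT P8 libraries at 1860 to 1861 bases and 11.0 to 39.3 CPM.

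The genes whose profile over the 8 groups was nearest to each of the 8 were found among 5522 genes by the root-mean-square difference of mean-centred log2 CPM. For Dmrtb1 they were the transcription factor gene Ovol1 (0.18 log2 units), the synaptonemal complex gene Syce1 (0.26) and Pih1d2 (0.27). For Rhox13 they were Steap1 (0.21), Cyp26a1 (0.24) and Xlr4a (0.24), and for Stra8 Fthl17c (0.26), Ott (0.29) and Taf7l (0.31). For Kit they were Dennd2c, Nsf and Ankrd26, for Sohlh1 Sertad4 (0.07), Cdca7 and Fam171b, and for Sohlh2 Nup93, Mcm8 and Atp13a3. For Rec8 they were Dcun1d3, Fndc3c1 and Ap4b1, and for Ythdc2 Usp9y, Wdr47 and CN725425. The 8 genes were left out of the candidates, so whether any was nearest to another of the 8 was not tested.

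**Figure D4:**
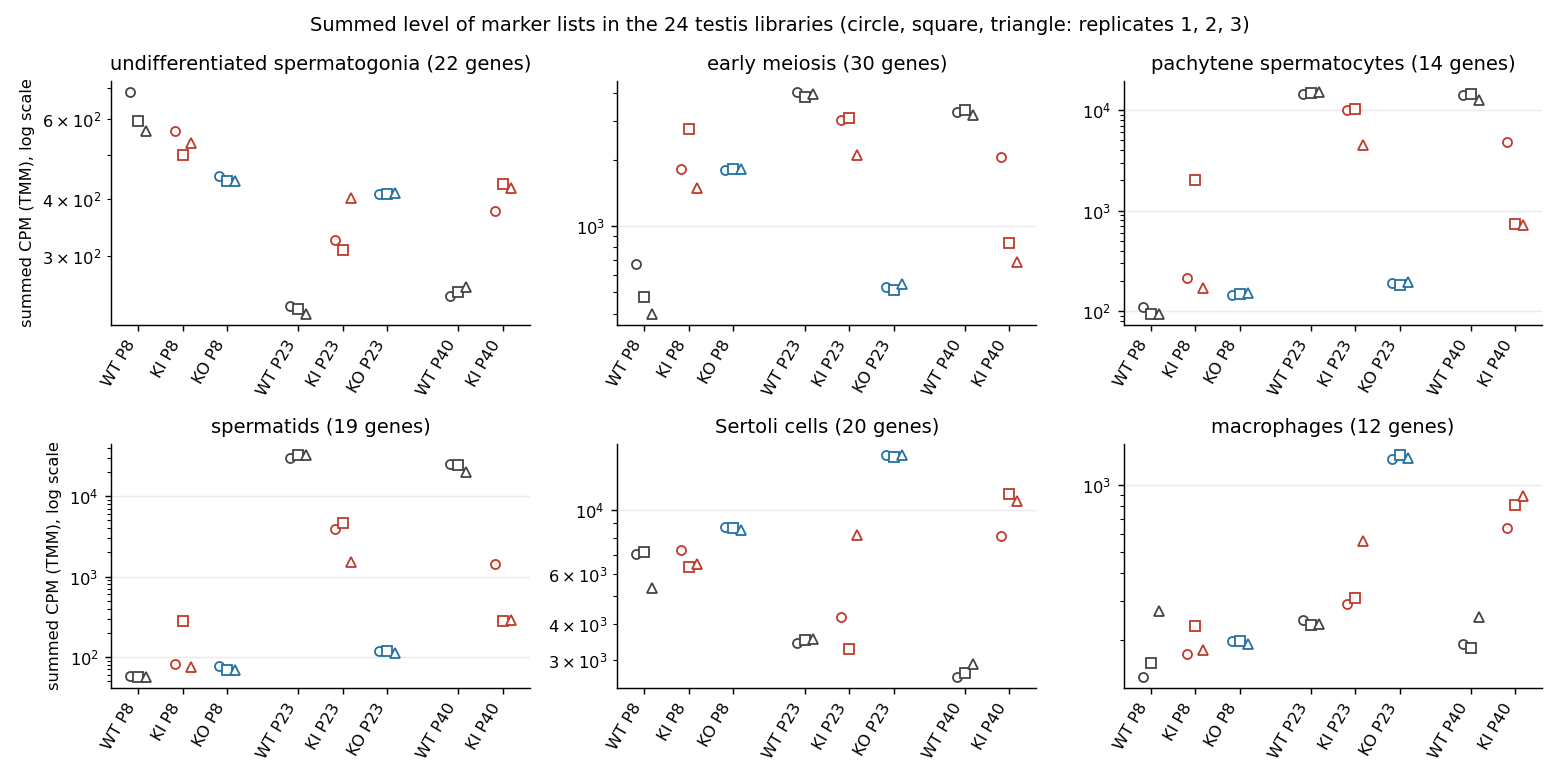
Summed level of 6 gene lists in every testis library (TMM-scaled CPM, log axis) by group, with 1 point per library. The early meiosis genes stand at 399 to 672 CPM in WT and at 1491 to 2756 in INSL3-KI at P8, and at 3827 to 4047 in WT and 511 to 543 in INSL3-KO at P23.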

How the data were processed

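RNA-seq counts and FPKM per gene came from 2 deposited tables of 39 libraries, of which the 24 testis libraries were analysed, and the gubernaculum libraries only for the levels of the 8 genes. The submitters' processing notes name HISAT2 and the GRCm38 build. The counting program, annotation and strand setting are not given in the sources used here. The authors made mRNA libraries and read them as paired ends. The deposited counts are raw whole numbers per gene and the deposited FPKM were scaled by the authors for depth and transcript length. The tables list 38822 and 58374 entries and were joined on Ensembl ID (21561 shared). Of 16509 genes with an implied length in both, it was the same within 1% for 6522, so the gene models of the tables differ.

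Groups were taken from the labels. Counts of shared genes were filtered with filterByExpr (minimum count 10, total 15), scaled by TMM and tested within each pair of groups by edgeR 4.0.16 (quasi-likelihood, R 4.3.3), with Benjamini-Hochberg adjustment over all genes tested, for 15 comparisons: 7 between genotypes, 6 between ages and 2 interactions. The study's thresholds (adjusted p under 0.01, fold of at least 2) were used. The alternatives were DESeq2 1.42.0, no low-count filter, scaling on library size or on 18 Sertoli cell genes, 1 fit of all 8 testis groups, a replicate block, leaving out each library, an adjusted p under 0.05 with no fold, and limma 3.58.1 on log2(FPKM + 1) for genes with a mean FPKM of at least 0.1. Implied length was counts divided by FPKM and library size, set to the annotated lengths of Rhox13, Sohlh1 and Sohlh2. The scripts were tested on simulated data.

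The text names the 8 genes, the 3 genes nearest to each over the group means (log2 CPM with prior count 2, range of at least 1, same implied length in both tables, no predicted gene names), Insl3, a set of named partners, and up to 4 genes a list with the largest changes among those called. The lists hold partners of differentiation and meiotic entry, early meiosis, undifferentiated spermatogonia, retinoic acid pathway, pachytene spermatocytes, spermatids, Sertoli, Leydig, mast, peritubular myoid and endothelial cells, and macrophages. The 8 genes and the lists were chosen with earlier results of these data known. Meiosin was not matched in the tables. No 2 libraries agreed within sampling noise. RefSeq windows were matched by gene.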

Additional observations from a re-analysis of the deposited data

Results flagged for a closer look

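Of the 8 genes, 3 had an INSL3-KI effect that differed between ages by a test of the difference itself (edgeR interaction). Over all genes, 22.5% were lower and 23.2% higher for P40 against P8, and 9.63% and 13.2% for P23 against P8. The effect at P40 minus that at P8 was -4.42 log2 units for Dmrtb1, -3.18 for Rec8 and -2.31 for Ythdc2, and the effect at P23 minus that at P8 was -2.57 for Dmrtb1, -2.88 for Rec8 and -1.71 for Ythdc2. In the test of P23 against P8, WT P23 stands in the second table, and WT P8 and both INSL3-KI groups stand in the first.

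The gubernaculum, the ligament that anchors the testis and holds no germ cells, was outside the comparisons, and Kit was present there above the control level. In CPM of library totals, the lowest of the INSL3-KI libraries at P8 stood at 69.5 and the lowest of the INSL3-KO libraries at 40.9, against 10.3 to 17.9 in WT, and at P23 the lowest INSL3-KI library stood at 37.1, against 5.37 to 13.4 in WT. These differences were not tested.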

How the results depend on the processing

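Over the 15 comparisons, 1464 recomputed log2 fold changes of the 8 genes held 12 changes of sign in which the value was called in at least 1 of the settings compared, and 366 recomputed counts of genes called held 287 within 1.5 times the count reported. All 12 came from scaling on Sertoli cell genes, which moved all genes together, and only the 2 Sohlh1 values were called under TMM. In INSL3-KO against WT at P23 the log2 fold changes became -1.51 for Kit, -1.74 for Stra8, -0.56 for Sohlh1, -2.41 for Sohlh2 and -2.36 for Rhox13. In INSL3-KI against WT at P40 they became -1.27 for Kit, -1.6 for Stra8, -0.55 for Sohlh1, -1.65 for Sohlh2 and -1.53 for Rhox13. In INSL3-KI against INSL3-KO at P23 they became 1.26 for Kit and 1.46 for Stra8.

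The number of the 8 genes called changed as follows. For INSL3-KI against WT at P8, 2 higher became 5 by DESeq2, 4 in 1 fit of all testis groups, 5 at an adjusted p under 0.05 with no fold, and 0 to 6 without 1 library. For INSL3-KO against WT at P8, 4 higher became 1 by Sertoli cell scaling and 2 to 5 without 1 library. For INSL3-KI against INSL3-KO at P8, 0 lower and 0 higher became 2 and 1 at an adjusted p under 0.05, and 1 higher by Sertoli cell scaling. For INSL3-KI against WT at P23, 1 lower became 2 by DESeq2 and at an adjusted p under 0.05, 0 by library size and by limma on log2(FPKM + 1), and 0 to 1 without 1 library, and 0 higher became 1 by DESeq2, library size, 1 fit and limma and 3 at an adjusted p under 0.05. For INSL3-KO against WT at P23, 3 lower became 1 by library size and limma and 7 by Sertoli cell scaling, and 1 higher became 3 by library size, limma and an adjusted p under 0.05 and 0 by Sertoli cell scaling. For INSL3-KI against INSL3-KO at P23, 0 lower became 1 at an adjusted p under 0.05 and 0 to 1 without 1 library, and 2 higher became 7 by Sertoli cell scaling. For INSL3-KI against WT at P40, 1 lower became 2 by DESeq2, 1 fit and an adjusted p under 0.05, 0 by library size, 7 by Sertoli cell scaling and 1 to 2 without 1 library, and 1 higher became 4 by library size, 0 by Sertoli cell scaling, 2 by limma and 3 at an adjusted p under 0.05. In WT from P8 to P23, 2 lower became 4 by library size, 1 by Sertoli cell scaling and 1 to 4 without 1 library, and from P8 to P40, 1 lower became 2 by DESeq2, 4 by library size and 1 to 4 without 1 library. In INSL3-KI from P8 to P23, 4 lower and 1 higher became 0 and 0 by Sertoli cell scaling and 0 to 4 and 0 to 1 without 1 library. For the INSL3-KI effect at P40 against P8, 3 lower became 7 by Sertoli cell scaling and 3 to 5 without 1 library, and 0 higher became 1 by DESeq2 and library size and 0 to 1 without 1 library. Causes of these moves were not tested.

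The replicate block took the INSL3-KI count at P8 from 2 higher to 0 and changed no other count. In no comparison did all 3 replicate numbers deviate together at r over 0.1 (over 13092 genes). With 3 libraries a group, some of which stood apart, this does not decide whether libraries of the same number shared a litter or batch. After seeing the data, 2 joint omissions were added, as were the list counts without each library. Without WT P8 replicate 1 and INSL3-KI P8 replicate 2, 6 genes were higher in INSL3-KI at P8, and without INSL3-KI P23 replicate 3 and INSL3-KI P40 replicate 1, 2 were lower from P23 to P40. For the INSL3-KI effect at P23 only WT P8 replicate 1, INSL3-KI P8 replicate 2 and INSL3-KI P23 replicate 3 were left out, since the number of regroupings was limited, and 3 lower became 2 to 5, or 2 by library size and by Sertoli cell scaling. With 5 groups of the first table, 9 of the 24 nearest genes were shared. Depth was at least 33000204 counts in every testis library, and with 3 libraries a group the spread between libraries set the precision.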

Other observations

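In the gubernaculum libraries Stra8, Rhox13, Sohlh1, Sohlh2 and Dmrtb1 were low, while Rec8 and Ythdc2 were present. The highest library reached 1.26 CPM for Stra8, 0.420 for Rhox13, 0.344 for Sohlh1, 0.613 for Sohlh2 and 4.97 for Dmrtb1. Rec8 ran from 0.556 to 18.9 CPM and Ythdc2 from 13.9 to 25.6 CPM. In WT at P8 Ythdc2 stood at 23.7 to 25.6 CPM of library totals in gubernaculum and at 29.8, 23.4 and 21.9 in testis. Rec8 stood there at 6.64 to 9.57 in gubernaculum and at 18.3, 10.3 and 12.7 in testis. In the testis at P8, Amh, a hormone gene of immature Sertoli cells, stood at 494, 751 and 596 TMM-scaled CPM in WT. It stood at 155, 87.4 and 151 in INSL3-KI and at 144, 145 and 142 in INSL3-KO, with no overlap of WT with the mutants. Amh belongs to the list of 20 Sertoli cell genes, of which more were called higher than lower in both mutants under TMM. The summed level of that list was 5352 to 7127 CPM in WT, 6318 to 7256 in INSL3-KI and 8518 to 8727 in INSL3-KO.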
